A study of Mus musculus with 6 samples.

Results

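The 39 Hox genes of the mouse were followed through lists of regions enriched for nucleosome-sized DNA in sperm that carry an altered protamine 1 and in wild-type sperm. The members are the protein-coding genes of mm10 whose symbol is Hoxa, Hoxb, Hoxc or Hoxd followed by a number, which gave 39 of 21887 protein-coding genes. The rule itself uses symbols and no measured value, but the family was picked with earlier results of these data known. They lie in 4 clusters, HoxA with 11 genes on chromosome 6, HoxB with 10 on chromosome 11, HoxC with 9 on chromosome 15 and HoxD with 9 on chromosome 2. Sperm were taken from the epididymis and vas deferens, treated with DNase I, permeabilised, decondensed with DTT and digested with micrococcal nuclease (MNase), first with 5 and then with 15 units. DNA of mononucleosome size was cut from a gel and sequenced. MNase leaves DNA that is wrapped around histones, and most sperm DNA is packed by protamines, so the enriched regions (peaks) mark places where nucleosome-sized DNA was recovered. The K49A group held 2 libraries from mutant mice in which a lysine of protamine 1 is exchanged for alanine, and the WT group held 4 libraries from wild-type C57BL6 mice. Both groups were handled with the same nuclease steps, and the libraries of a group are called biological replicates in the series design. The sources used here state no age, no zygosity of the mutation and no number of animals behind a library, so the spread between libraries may hold technical variation. The lists give no expression, so the label sperm was not checked against marker genes. Each library is 1 list of peaks, with 700 and 1017 peaks in K49A 1 and K49A 2, and 11313, 20458, 22237 and 27903 peaks in WT 1, WT 2, WT 3 and WT 4. Read depth is unknown, and the weakest peak had a −log10 p of 4.73 and 4.55 in the K49A lists, against 3.75, 3.48, 3.41 and 3.32 in the WT lists, so the lists end at different p-values.

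Hox genes encode homeodomain transcription factors that give cells their identity along the head-to-tail axis of the embryo and along the limbs and genital tract. The order of the genes along a cluster matches the order in which they are used along the body, from the anterior genes with low numbers to the posterior genes with high numbers, and genes with the same number in different clusters (paralogues) have overlapping roles. Outside their domains they are held silent by Polycomb proteins, and they are among the developmental genes at which histones have been described in mammalian sperm.

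Promoter sequences show how much these genes differ in CpG content, and WT peaks lay more often over promoters with many CpG, as given further on. RefSeq promoter windows for GRCm38.p6, running from 250 bases before to 50 bases after a gene start, were matched for 22 of the 39 genes. Those printed here are the window that was overlapped by a peak in all 4 WT libraries (Hoxd13), a window overlapped in 3 (Hoxd1), the window with the most CpG (Hoxa13, where WT peaks lay mostly past the start) and the window with the lowest GC content (Hoxd4, where no library had a peak). They are written 5′ to 3′ on the strand of the gene, with each CpG in capitals. The windows are chr2:74667975-74668274 on the plus strand for Hoxd13, chr2:74762730-74763029 on the plus strand for Hoxd1, chr6:52260831-52261130 on the minus strand for Hoxa13 and chr2:74721728-74722027 on the plus strand for Hoxd4.
Hoxd13: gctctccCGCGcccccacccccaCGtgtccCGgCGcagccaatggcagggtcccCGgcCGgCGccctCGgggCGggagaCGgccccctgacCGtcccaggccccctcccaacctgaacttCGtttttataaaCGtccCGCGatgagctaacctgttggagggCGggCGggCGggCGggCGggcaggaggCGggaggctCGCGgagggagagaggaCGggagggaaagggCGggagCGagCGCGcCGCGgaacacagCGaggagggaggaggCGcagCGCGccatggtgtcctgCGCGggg
Hoxd1: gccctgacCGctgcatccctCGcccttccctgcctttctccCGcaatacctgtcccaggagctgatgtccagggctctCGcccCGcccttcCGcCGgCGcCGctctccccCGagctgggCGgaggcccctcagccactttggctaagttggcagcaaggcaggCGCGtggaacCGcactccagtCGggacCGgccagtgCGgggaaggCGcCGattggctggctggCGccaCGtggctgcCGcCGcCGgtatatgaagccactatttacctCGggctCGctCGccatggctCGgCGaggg
Hoxa13: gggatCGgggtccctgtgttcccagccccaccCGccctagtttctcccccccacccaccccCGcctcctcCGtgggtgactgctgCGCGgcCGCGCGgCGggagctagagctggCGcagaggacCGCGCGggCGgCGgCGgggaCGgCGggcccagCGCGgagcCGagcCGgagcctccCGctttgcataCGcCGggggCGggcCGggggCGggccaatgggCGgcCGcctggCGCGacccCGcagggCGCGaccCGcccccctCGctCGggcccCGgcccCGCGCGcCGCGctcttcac
Hoxd4: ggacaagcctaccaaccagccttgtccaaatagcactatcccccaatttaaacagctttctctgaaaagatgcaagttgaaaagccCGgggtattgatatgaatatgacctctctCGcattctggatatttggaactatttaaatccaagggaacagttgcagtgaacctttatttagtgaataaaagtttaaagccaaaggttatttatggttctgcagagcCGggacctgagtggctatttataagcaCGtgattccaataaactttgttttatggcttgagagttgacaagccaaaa
The Hoxd13 window holds 37 CpG and 74.3% G and C, the Hoxd1 window 29 CpG and 69.7%, the Hoxa13 window 45 CpG and 81.0%, and the Hoxd4 window 4 CpG and 39.7%.

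Hox genes with a peak near them were almost absent from the K49A lists and common in the WT lists. A gene was counted where a peak overlapped, by at least 1 bp, the window of 1 kb either side of its start or of its finish. In K49A 1 and K49A 2 this held for 0 and 1 of the 39 genes, against 14, 21, 22 and 21 in WT 1, WT 2, WT 3 and WT 4. The groups did not overlap, with a mean of 0.5 ± 0.707 genes in K49A (SD, n = 2) and 19.5 ± 3.70 in WT (SD, n = 4), a difference of -19.0 genes. Over all protein-coding genes the percent called was 0.429 and 0.334 in K49A 1 and K49A 2, and 28.8, 43.0, 46.3 and 49.9 in WT 1, WT 2, WT 3 and WT 4. The Hox genes stood at 0 and 2.56% in K49A and at 35.9, 53.8, 56.4 and 53.8% in WT, above all genes in each WT library and, in K49A, on a single gene. The low Hox counts in K49A thus stand beside percents that are as low over all genes. The higher Hox share did not hold in WT 4 at stricter thresholds. With a −log10 p of at least 5, WT 4 called 11 of the 39 Hox genes against 31.6% of all genes, a lower share. With a −log10 q of at least 2 it called 14 against 36.7%, again lower. In WT 1, WT 2 and WT 3 the Hox share stayed higher at both thresholds.

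**Figure D1:**
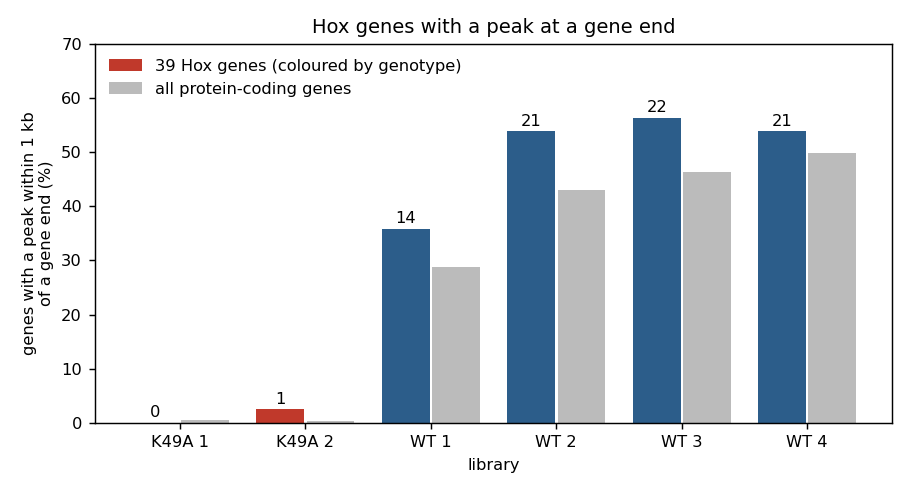
Percent of genes with a peak within 1 kb of a gene end (vertical axis) in each of the 6 libraries (horizontal axis), for the 39 Hox genes (coloured bars, red for K49A and blue for WT, with the number of genes above) and for all 21887 protein-coding genes (grey bars). The K49A libraries have 0 and 1 Hox genes with a peak and the WT libraries 14 to 22, and the coloured bar stands above the grey one in each WT library.

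Of the 39 genes, 9 were called in every WT library but in no K49A library, which is 23.1% against 21.8% of all genes, so the share is near the background. Counting Hoxc10 as well, 10 genes (25.6%, against 22.2% of all genes) were called in every WT library. A peak in at least 1 WT library was found for 30 of the 39 genes, where the background was 59.8%. No library had a peak at an end for 9 genes, which is 23.1% against 40.1%. Between these ends lay 4 genes called in 3 WT libraries, 10 called in 2 and 6 called in 1. The genes called in 2 WT libraries were 25.6% of Hox genes and 11.1% of all genes, and those called in 3 were 10.3% of Hox genes and 15.3% of all genes.

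**Figure D2:**
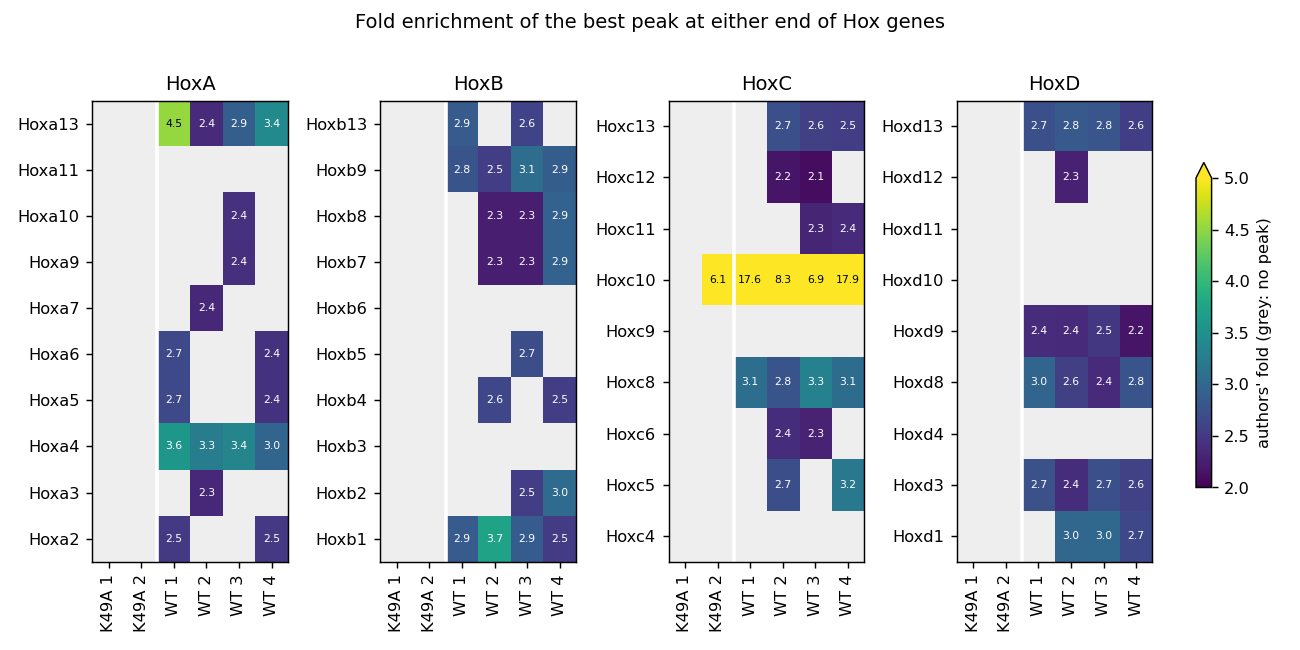
The authors' fold enrichment of the best peak within 1 kb of either end of Hox genes (rows, from high paralogue groups at the top to low ones) in the K49A and WT libraries (columns), with 1 panel per cluster. Grey cells have no peak, the colour scale stops at 5, and the printed number is the fold. The K49A columns are grey except for Hoxc10 in K49A 2, and most WT folds lie between 2 and 4.

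The genes called in every WT library were spread over the 4 clusters. HoxA had 2 such genes of 11 (Hoxa13 and Hoxa4), HoxB 2 of 10 (Hoxb9 and Hoxb1), HoxC 2 of 9 (Hoxc10 and Hoxc8) and HoxD 4 of 9 (Hoxd13, Hoxd9, Hoxd8 and Hoxd3). HoxA genes with a peak numbered 0 and 0 in K49A, and 5, 4, 4 and 5 in WT. HoxB had 0 and 0 in K49A, and 3, 5, 7 and 6 in WT. For HoxC the numbers were 0 and 1 in K49A, and 2, 6, 6 and 5 in WT, and for HoxD 0 and 0 in K49A, and 4, 6, 5 and 5 in WT. Each cluster's WT counts lay above its K49A counts. So did the percent over all protein-coding genes, with 28.8, 43.0, 46.3 and 49.9 in WT and 0.429 and 0.334 in K49A. The WT means were 40.9 ± 5.25% of HoxA, 52.5 ± 17.1% of HoxB, 52.8 ± 21.0% of HoxC and 55.6 ± 9.07% of HoxD genes (SD, n = 4 each). They differed by less than the spread between libraries in the last 3 clusters. Over all genes the WT mean was 41.98 ± 9.23%, with HoxA just below it and the other clusters above it.

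The WT share was the same on average along the clusters. Over all protein-coding genes the WT mean was 41.98 ± 9.23% (SD, n = 4), with 0.429 and 0.334% in K49A. Posterior genes (paralogue groups 9 to 13, 16 genes, used in the tail, limbs and genital tract) had a peak in 0 and 6.25% of cases in K49A and in 50.0 ± 13.5% in WT (SD, n = 4). Central genes (groups 4 to 8, 15 genes, used in the neck and trunk) had 0% in both K49A libraries and 50.0 ± 12.8% in WT, and anterior genes (groups 1 to 3, 8 genes, used in the hindbrain and neck) 0% in both K49A libraries and 50.0 ± 10.2% in WT (SD, n = 4 each). Paralogues of 1 group were in part called alike and in part not. Group 13 had a peak in at least 2 WT libraries for each of its 4 members, with Hoxa13 and Hoxd13 in 4, Hoxc13 in 3 and Hoxb13 in 2. In group 11, of which Hoxa11 and Hoxd11 are needed for the forearm, neither had a peak at an end in any library, while Hoxc11 had one in 2 WT libraries. A further RefSeq promoter window inside Hoxd11 (chr2:74682073-74682372) was nevertheless overlapped by a peak in WT 2 (7 bp) and WT 4 (300 bp).

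Posterior genes called in all 4 WT libraries were Hoxa13, Hoxd13, Hoxb9, Hoxd9 and Hoxc10. Hoxa13 (chromosome 6, 52258853 to 52260880), which patterns digits and the genital tubercle, had no peak in either K49A library, and folds of 4.52, 2.37, 2.91 and 3.44 in WT 1, WT 2, WT 3 and WT 4 (mean 3.31 ± 0.917, SD, n = 4). A fold here is the authors' enrichment of a peak over the background of its own library. WT 1 had the highest Hoxa13 fold and WT 2 the lowest, and in WT 1, WT 2 and WT 4 the peak began 65, 332 and 290 bp past the gene start, so that the promoter window printed above was overlapped in WT 3 alone. Hoxd13 (chromosome 2, 74668225 to 74671603), mutated in human synpolydactyly, had none in K49A and folds of 2.73, 2.84, 2.79 and 2.55 in WT (mean 2.73 ± 0.126, SD, n = 4). The folds of the 4 libraries lay close together, and all 4 peaks ran across the start, from 74668201 to 74668543 in WT 1, 74668178 to 74668726 in WT 2, 74667922 to 74668607 in WT 3 and 74667823 to 74668800 in WT 4, which shared the last 74 bases of the printed window.

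Hoxb9 (chromosome 11, 96271330 to 96276595), which acts on the thoracic skeleton, had none in K49A and folds of 2.79, 2.54, 3.08 and 2.89 in WT (mean 2.82 ± 0.222, SD, n = 4). Its peaks were 1238, 1927, 1275 and 1821 bp wide in the 4 WT libraries and covered the first part of the gene each time, and the WT 2 peak was the widest best peak at any Hox gene end. Hoxd9 (chromosome 2, 74697763 to 74700208), which works with its paralogue Hoxa9 in the upper arm, had none in K49A and folds of 2.39, 2.36, 2.49 and 2.17 in WT (mean 2.35 ± 0.132, SD, n = 4). This mean was the lowest among the genes called in all 4 WT libraries, and the peak did not keep its place, since the best peak lay at the finish in WT 1 and WT 3 and near the start in WT 2 and WT 4. Hoxc10 is described further on, since it alone was called in K49A.

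The central and anterior genes called in all 4 WT libraries had like folds. Hoxc8 (chromosome 15, 102990539 to 102994275), which acts in the thoracic region and in motor neurons of the forelimb, had none in K49A and folds of 3.09, 2.78, 3.31 and 3.06 in WT (mean 3.06 ± 0.221, SD, n = 4). All 4 peaks crossed the gene start, the narrowest from 102990494 to 102990785 in WT 1 and the widest from 102990250 to 102990806 in WT 3. Hoxd8 (chromosome 2, 74704615 to 74707933), a central gene next to Hoxd9, had none in K49A and folds of 2.98, 2.57, 2.37 and 2.78 in WT (mean 2.68 ± 0.265, SD, n = 4). Its peaks lay inside the gene, past the start by 647, 578, 677 and 74 bp, and left the promoter window free in all 4 libraries. Hoxa4 (chromosome 6, 52189682 to 52191703), which shapes neck vertebrae, had none in K49A and folds of 3.59, 3.27, 3.37 and 2.98 in WT (mean 3.30 ± 0.254, SD, n = 4), with peaks that began 107, 218, 213 and 39 bp past the start.

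Hoxd3 (chromosome 2, 74711993 to 74748271), needed for the first neck vertebrae, had none in K49A and folds of 2.75, 2.39, 2.74 and 2.59 in WT (mean 2.62 ± 0.165, SD, n = 4). Its promoter window was covered in full in WT 2, WT 3 and WT 4, and the WT 1 peak began just after it. Hoxb1 (chromosome 11, 96365746 to 96368254), which sets the identity of the hindbrain segment that makes facial motor neurons, had none in K49A and folds of 2.86, 3.73, 2.88 and 2.53 in WT (mean 3.00 ± 0.509, SD, n = 4). The best Hoxb1 peak was at the finish in WT 2 and reached from the start to the finish window in WT 3, since the gene is only 2509 bp long.

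Several genes were missed by a single WT library or shared a peak with a neighbour. Hoxc13, a gene of hair and nails, Hoxd1, which acts in pain-sensing neurons of the mouse, and the neighbours Hoxb7 and Hoxb8 were called in WT 2, WT 3 and WT 4 and in neither K49A library. Hoxd1 had folds of 2.99, 3.00 and 2.66 and Hoxc13 2.73, 2.57 and 2.55 in those WT libraries. Hoxb7 and Hoxb8 rested on the same peak in each of the 3 libraries, with folds of 2.25, 2.26 and 2.95. Hoxa5 and Hoxa6 likewise shared a peak in WT 1 and WT 4. Genes that no library called at an end included Hoxa11, Hoxb6, Hoxb3, Hoxc4, Hoxd11, Hoxd10, Hoxd4 and Hoxc9, which marks thoracic motor neurons, and for some of these peaks lay inside the gene, away from the ends. Such inner peaks overlapped a RefSeq promoter window of Hoxd11 in WT 2 and WT 4, and that of Hoxc4 in WT 2. The 6 called in 1 WT library were Hoxa10, Hoxa9, Hoxa7, Hoxa3, Hoxb5 and Hoxd12, and the 10 called in 2 were Hoxa6, Hoxa5, Hoxa2, Hoxb13, Hoxb4, Hoxb2, Hoxc12, Hoxc11, Hoxc6 and Hoxc5.

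Peaks lay at starts more often than at finishes, but a peak at the finish was more common for Hox genes than for genes at large. A peak at the start was found for 0 and 1 Hox genes in K49A and for 12, 17, 20 and 17 in WT, where the percent called over 17492 genes with a known strand was 0.314 and 0.2 in K49A and 27.6, 40.8, 44.1 and 47.2 in WT. The WT mean was 42.3 ± 8.50% of Hox genes and 39.9 ± 8.61% of all stranded genes (SD, n = 4), a gap smaller than the spread between libraries. A peak at the finish was found for 0 and 0 Hox genes in K49A and for 2, 5, 8 and 7 in WT, where the percent called over all was 0.131 and 0.126 in K49A and 1.96, 4.01, 4.57 and 5.51 in WT. The WT mean was 14.1 ± 6.78% of Hox genes and 4.01 ± 1.501% of stranded genes (SD, n = 4), with Hox genes higher in each of the 4 libraries. Of these finish calls 1, 1, 1 and 2 in the WT libraries rested on a peak that also lay at the start of another Hox gene, and a peak such as that of Hoxb1 in WT 3 counts for both ends of its gene.

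Hoxc10 (chromosome 15, 102966796 to 102971898), which marks motor neurons of the lumbar cord, stood apart from the other Hox genes. It had no peak in K49A 1 and a fold of 6.07 in K49A 2, and folds of 17.65, 8.28, 6.94 and 17.9 in WT 1, WT 2, WT 3 and WT 4 (WT mean 12.7 ± 5.91, SD, n = 4). It was the 1 Hox gene called in K49A, where 0.626% of all genes were called in at least 1 library. The folds differed widely, with WT 1 and WT 4 highest and K49A 2 below the lowest WT value, and each is relative to its own library. Its peak ran from 102966655 to 102966873 with the same borders in K49A 2, WT 1 and WT 4, a length of 219 bp that begins 141 bp before the gene start and ends 77 bp after it. In WT 2 it was wider, 448 bp from 102966426 to 102966873, and in WT 3 wider still, 861 bp from 102966217 to 102967077.

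No other peak in the Hox clusters came near this one in strength. The −log10 q at the Hoxc10 start was 18.4 in K49A 2, and 147, 57.9, 46.2 and 216 in WT 1, WT 2, WT 3 and WT 4. By this value it ranked 114 of 1017 peaks in K49A 2, and 26 of 11313, 55 of 20458, 66 of 22237 and 23 of 27903 in the WT lists. The next strongest cluster peak had a −log10 q of 9.97 in WT 1 (Hoxa13), 4.64 in WT 2 (Hoxb1), 5.00 in WT 3 (Hoxc8) and 6.49 in WT 4 (Hoxa13), at ranks 261, 787, 879 and 928. Setting the Hoxc10 start aside, the 166 other WT peaks in the clusters had folds of 2.10 to 4.52, a −log10 q of 1.07 to 9.97 and widths of 200 to 1962 bp.

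**Figure D3:**
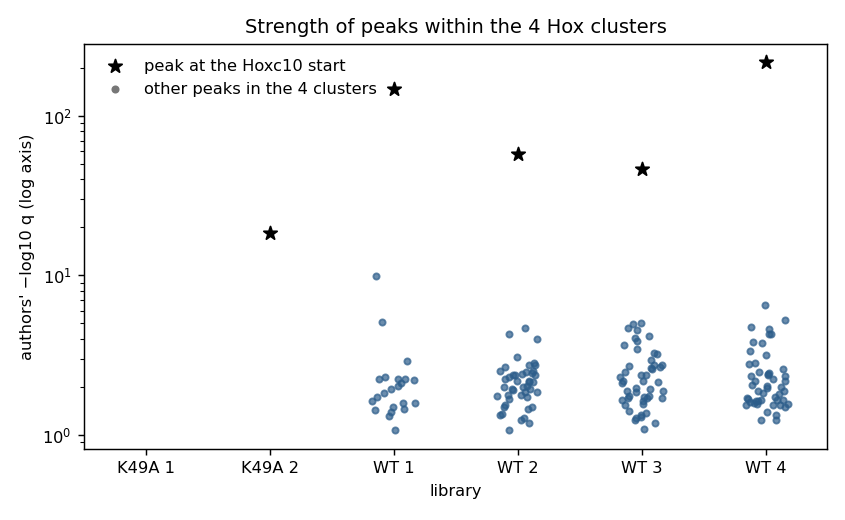
The authors' −log10 q (vertical log axis) of each peak within the 4 Hox clusters in the K49A and WT libraries (horizontal axis), with the peak at the Hoxc10 start as a black star and other peaks as blue dots spread sideways at random. K49A 1 has no peak, K49A 2 has the star alone at 18.4, and in WT the stars lie at 46.2 to 216, above all dots, which reach 9.97.

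Across the 4 clusters, peaks of any position were few in K49A and numerous in WT. The number of peaks that overlapped the clusters, 492.1 kb in all, was 0 and 1 in K49A 1 and K49A 2, and 23, 46, 50 and 51 in WT 1, WT 2, WT 3 and WT 4. The means were 0.5 ± 0.707 in K49A (SD, n = 2) and 42.5 ± 13.2 in WT (SD, n = 4), and the groups did not overlap (difference -42.0, exact permutation test, two-sided p = 0.133). With 2 and 4 libraries there are 15 splits and 0.133 is the smallest two-sided p the test can give, so it cannot reach 0.05. As a share of each list, cluster peaks made up 0 and 0.0983% in K49A, and 0.203, 0.225, 0.225 and 0.183% in WT. With every list reduced to its 700 strongest peaks the numbers were 0 and 1 in K49A, and 2, 1, 1 and 1 in WT (p = 0.533, exact permutation test), where the groups touched at 1 peak.

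HoxA (chromosome 6, 52155367 to 52260880) had 0 bp covered by peaks in both K49A libraries, and 2118, 3629, 5418 and 5890 bp in WT. HoxB (chromosome 11, 96194316 to 96368254) had 0 bp in both K49A libraries, and 4163, 9554, 9408 and 8861 bp in WT. The groups did not overlap in either cluster. Nor did they over the whole genome span, of which 0.0101 and 0.0151% was covered in K49A and 0.213 to 0.536% in WT. HoxC (chromosome 15, 102921131 to 103036856) had 0 and 219 bp in K49A, all of it the Hoxc10 peak, and 1984, 8560, 7905 and 6037 bp in WT. HoxD (chromosome 2, 74668225 to 74765142) had 0 bp in both K49A libraries, and 1564, 7586, 7817 and 7084 bp in WT. In every cluster WT 1 was the lowest WT library and still lay above both K49A libraries. The differences were -4263.8 bp for HoxA, -7996.5 for HoxB, -6012.0 for HoxC and -6012.8 for HoxD (exact permutation test, two-sided p = 0.133 for each and 0.133 after Benjamini-Hochberg adjustment over the 4 clusters). As a share of cluster length the WT means were 4.04 ± 1.64% of HoxA, 4.60 ± 1.48% of HoxB, 5.29 ± 2.56% of HoxC and 6.20 ± 3.08% of HoxD (SD, n = 4 each), and these shares overlapped. At 700 peaks per list HoxB and HoxD had 0 bp in all 6 libraries, HoxA had 596 bp in WT 1 alone, and HoxC had the Hoxc10 peak alone (exact permutation test, p = 1.0 for HoxA, HoxB and HoxD and 0.4 for HoxC).

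**Figure D4:**
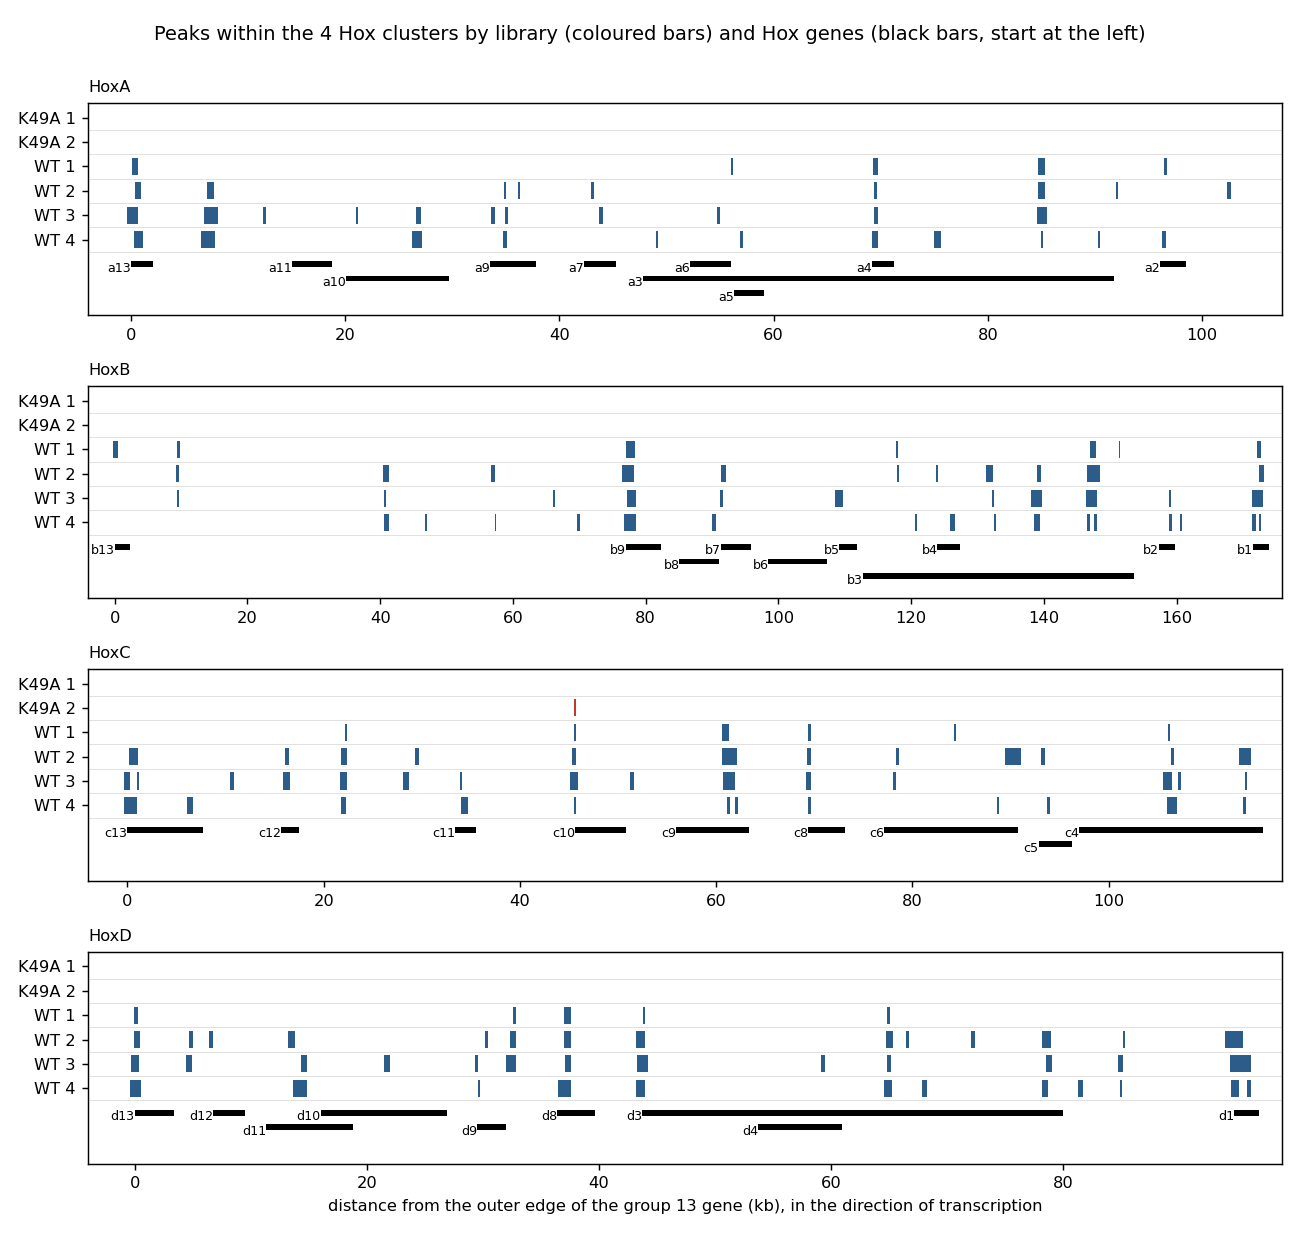
Peaks of each K49A (red) and WT (blue) library along the 4 clusters, drawn to scale in kb from the outer edge of the group 13 gene in the direction of transcription, with Hox genes as black bars named at their start. K49A rows are empty except for 1 peak at Hoxc10 in K49A 2, and WT peaks recur at the same places in several libraries, inside genes and between them as well as at starts.

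Peaks in WT covered far more of the clusters between gene ends than of the genome between gene ends. Within the windows at Hox gene ends, 0 and 0.155% of the length was covered in K49A, and 3.44, 8.97, 8.96 and 7.92% in WT (mean 7.32 ± 2.64, SD, n = 4), close to the WT mean of 6.77 ± 2.02% in the windows of all genes. Outside the windows, the clusters had 0% in both K49A libraries, and 1.42, 4.75, 5.10 and 4.76% in WT (mean 4.01 ± 1.73, SD, n = 4). The same measure over the genome was 0.00937 and 0.0147% in K49A, and 0.105, 0.293, 0.307 and 0.291% in WT (mean 0.249 ± 0.0960, SD, n = 4). Every WT library thus had more coverage between gene ends in the clusters than in the genome, and the lowest cluster value (WT 1) lay above the highest genome value (WT 3). Inside Hox genes, away from their ends, the WT mean was 5.49 ± 2.17% against 0.350 ± 0.131% for all gene bodies, and in the gaps between Hox genes it was 2.26 ± 1.24% (SD, n = 4 each). The gene models overlap and long ones such as Hoxd3, Hoxa3 and Hoxb3 run across further genes, so a part of the gene bodies holds start sites of other transcripts. Windows were set at the ends of protein-coding genes only. Sequence outside them thus includes the ends of noncoding genes, in the clusters and in the genome.

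Taken whole, the clusters were covered to 0 and 0.0445% in K49A, and to 1.997, 5.96, 6.21 and 5.66% in WT (mean 4.96 ± 1.99, SD, n = 4). Sequence flanking them, taken at the same length on both sides, was covered to 0 and 0.0203% in K49A, and to 0.724, 1.99, 2.20 and 1.33% in WT (mean 1.56 ± 0.671, SD, n = 4), less than the clusters in each WT library. The whole genome span was covered to 0.0101 and 0.0151% in K49A, and to 0.213, 0.500, 0.536 and 0.511% in WT. Among 27025 bins of 100 kb, the coverage of HoxA lay above 98.9 to 99.9% of bins in the WT libraries, HoxB above 99.7 to 99.9%, HoxC above 98.7 to 99.98% and HoxD above 98.3 to 99.99%. Gene-rich bins came closer, and among 1052 bins with at least 5 protein-coding genes the clusters lay above 90.02% (HoxA in its lowest WT library) to 100.0% (HoxD in its highest). These ranks are descriptions with no test.

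**Figure D5:**
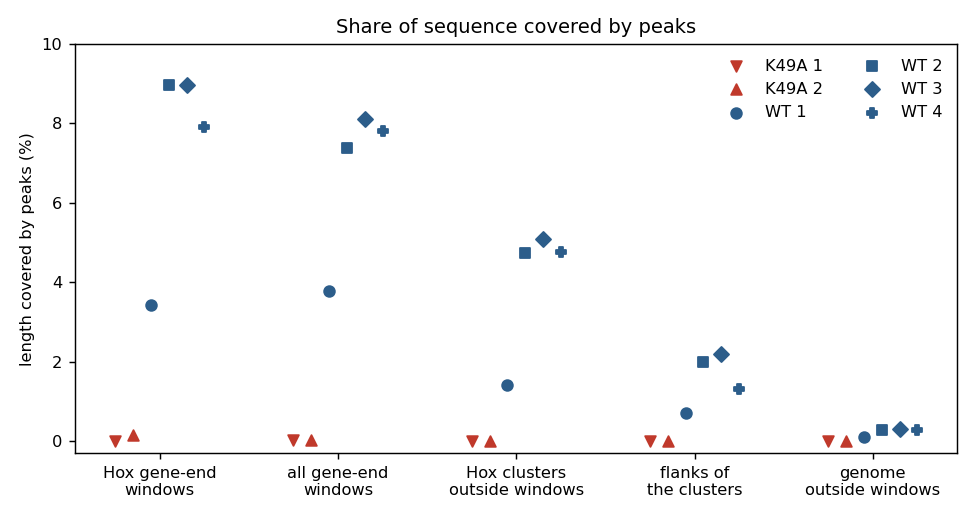
Percent of sequence covered by peaks (vertical axis) in windows at Hox gene ends, windows at all gene ends, the Hox clusters outside windows, the flanks of the clusters and the genome outside windows (horizontal axis), with 1 symbol per library, red for K49A and blue for WT. K49A lies between 0 and 0.155% throughout, and in WT the clusters outside windows, at 1.42 to 5.10%, lie far above the genome outside windows, at 0.105 to 0.307%.

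The cluster peaks of WT were not strong ones. Their median fold was 2.83, 2.48, 2.49 and 2.54 in the WT libraries (mean 2.58 ± 0.165), against 2.97 ± 0.132 for all WT peaks (SD, n = 4), and they were lower in each library. Ranked by −log10 q, the median cluster peak stood at percentile 50.2, 55.9, 50.8 and 45.7 of its own WT list. Their share at a Hox gene end was 56.5, 45.7, 48.0 and 43.1%, where 51.0, 42.7, 42.8 and 36.8% of all WT peaks were at a gene end. If the WT peaks are held to the −log10 p of 4.73 at which the K49A 1 list ends, the clusters held 0 and 1 peaks in K49A, and 14, 26, 27 and 23 in WT. That limit kept 60.9, 56.5, 54.0 and 45.1% of the cluster peaks of the WT lists, near the 62.3, 52.0, 55.2 and 50.6% kept of all their peaks. With it the groups still did not overlap.

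Merging the 6 lists gave 83 regions in the clusters, of which 14 were called in each WT library but in no K49A library, or 16.9% against 13.8% of all merged regions. The region at the Hoxc10 start was called in each WT library and also in K49A 2, and 43 regions (51.8%, against 58.0% of all) rested on a single WT library. Of the 15 regions called in all 4 WT libraries, 9 were at a Hox gene end and 6 were not. Those 6 had no peak in K49A and mean WT folds of 2.41 to 2.83. A region inside Hoxa3 (chromosome 6, 52175340 to 52176244) had 2.83 ± 0.496, a region inside Hoxc4 (chromosome 15, 103026641 to 103028157) 2.81 ± 0.263, and a region inside Hoxd3 (chromosome 2, 74732785 to 74733545) 2.58 ± 0.146 (fold, SD, n = 4 each). Hoxb3 held one from 96340682 to 96342747 on chromosome 11 (2.504 ± 0.244), and Hoxc9 one from 102981775 to 102983405 on chromosome 15 (2.41 ± 0.179). Hoxb3, Hoxc9 and Hoxc4, which no library called at an end, thus had a recurrent WT peak in their interior. The last region lay between Hoxc12 and Hotair (chromosome 15, 102942822 to 102943544, 2.74 ± 0.215), within 1 kb of the annotated end of Hotair, a long noncoding RNA that has been linked to Polycomb silencing in human cells. The regions inside Hoxa3, Hoxb3, Hoxc4 and Hoxc9 also lay within 1 kb of an annotated end of a noncoding gene. These genes were LOC115490409, Hoxb3os, Gm30528 and Gm36878, in that order. The gene table gives gene ends and no exons, so whether these regions are exonic or intronic was not read.

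CpG content differed among Hox promoters along with the WT calls. A WT peak overlapped 2, 7, 6 and 5 of the 24 RefSeq windows of the 22 matched genes in WT 1, WT 2, WT 3 and WT 4, and a K49A peak 0 and 0. Over all 21263 windows the percent called was 0.0941 and 0.0705 in K49A, and 18.7, 30.2, 33.8 and 37.9 in WT. The WT mean was 20.8 ± 9.001% of Hox windows against 30.1 ± 8.27% of all windows (SD, n = 4), while the median CpG number was 14.5 against 13. Matched genes were few in HoxB (3 of 10) and HoxC (1 of 9). Hoxc10 and Hoxc8, whose peaks crossed the start in all 4 WT libraries, had no matched window. The Hox share over windows thus holds for the matched genes only. The 3 windows called in at least 3 WT libraries, those of Hoxd13, Hoxd1 and Hoxd3, held 37, 29 and 20 CpG. The 8 windows called in 1 or 2 WT libraries had a median of 17 CpG (9 to 45). For the 13 windows called in no WT library the median was 12 CpG (4 to 26), so the classes overlapped. Of the sequences printed above, that of Hoxd13 was called in every WT library and that of Hoxd4 in none, while Hoxa13, with 45 CpG the highest of the Hox windows, was called over its window in 1 WT library and past it in the others.

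Hox windows were also set beside all windows with a like number of CpG, as a description with no test over few windows. With 0 to 9 CpG, 3.57 ± 7.14% of 7 Hox windows were called in WT, against 4.69 ± 2.04% of all. With 10 to 19 the values were 16.7 ± 13.6% of 6 Hox windows and 30.9 ± 11.99% of all. With 20 to 29 they were 27.8 ± 11.1% of 9 Hox windows and 50.8 ± 16.2% of all, and with 30 to 67 they were 62.5% of the windows of Hoxa13 and Hoxd13 and 72.9 ± 12.99% of all (SD, n = 4 throughout). In both sets the mean share was higher with more CpG. The mean of the matched Hox windows, which leave out Hoxc10 and Hoxc8, was below that of all windows in each of the 4 classes. Single libraries went the other way, such as WT 2 with 0 to 9 CpG (14.3% of Hox windows and 5.73% of all) and WT 3 with 30 to 67 CpG (100.0% and 75.1%).

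Noncoding genes inside the clusters had peaks in WT and none in K49A. Of 25 long noncoding RNA genes, 5 (20.0%, against 7.96% of all 12727 such genes) were called at an end in every WT library and 8 (32.0%, against 67.6%) in no library. None had a peak in K49A, where 0.456% of all such genes were called in at least 1 library. The 5 were Hotair and Gm30528 in HoxC, Hoxb3os in HoxB, Gm38462 in HoxD and LOC115490409 in HoxA. The calls of Gm38462 rested on the peaks at the Hoxd3 start, so noncoding and Hox calls are in part the same peaks. Of 6 microRNA genes, several of which target Hox transcripts, none was called in all 4 WT libraries, against 5.29% of all microRNA genes. Mir615, inside Hoxc5, was called in WT 2 and WT 4, Mir10a in WT 2, Mir196a-1 in WT 4 and Mir196a-2 in WT 3, while Mir196b and Mir10b had no peak (82.4% of all microRNA genes had none). None of the 6 had a peak in K49A, where 0.0814% of all microRNA genes were called in at least 1 library. The genes next to the clusters ran from no peak to a peak in every WT library, with Evx1 beside HoxA, Evx2 beside HoxD and Calcoco1 beside HoxC in 0, Ttll6 beside HoxB in 1, Mtx2 beside HoxD in 2, Skap2 beside HoxA in 3, and Skap1 beside HoxB and Smug1 beside HoxC in 4. None of these neighbours had a peak in K49A, where 0.626% of all protein-coding genes were called in at least 1 library.

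Genes that work with the Hox genes had no peak at an end in either K49A library, and many had one in WT. Of all protein-coding genes 0.626% were called in at least 1 K49A library, so an absence in lists this short is the usual case. In WT 1, WT 2, WT 3 and WT 4 28.8, 43.0, 46.3 and 49.9% of all genes were called. Polycomb, Trithorax and related genes (Ctcf is among them), many of which keep Hox genes silent or active, had a peak for 16, 16, 17 and 18 of 22 members in WT (76.1 ± 4.35%, SD, n = 4), and 13 (59.1%, against 21.8% of all genes) were called in all 4 WT and no K49A library. Phc1, a subunit of Polycomb repressive complex 1, had the highest rank in that list with a fold of 4.21 ± 0.789, followed by Kmt2a, which methylates histone H3 at Hox promoters, with 3.32 ± 0.131 (SD, n = 4 each). Cofactors that bind DNA together with Hox proteins had a peak for 5, 7, 6 and 9 of 9 members in WT, with 4 (44.4%, against 21.8% of all genes) in all 4 WT and no K49A library. Their first ranks went to Meis3, called in WT 4 alone with a fold of 3.47, and Pbx3, with 3.25 ± 0.388 (SD, n = 4). Of 10 genes of retinoic acid, which switches on anterior Hox genes, 3, 7, 6 and 5 had a peak in WT and 3 (30.0%, against 21.8%) in all 4 WT and no K49A library. They were led by the receptor genes Rxra, with 4.54 ± 1.05 (SD, n = 4), and Rxrb, called in 3 WT libraries.

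ParaHox and Evx genes, the closest relatives of the Hox genes, had a peak for 3, 5, 6 and 4 of 8 members in WT, with 3 members (37.5%, against 21.8% of all genes) in all 4 WT and no K49A library. First ranks went to Cdx4, called in WT 3 alone, and Gsx2, a gene of the forebrain, with a fold of 2.76 ± 0.249 (SD, n = 4). A chosen list of genes outside the clusters had a peak for 29, 42, 42 and 41 of 58 members in WT (66.4 ± 10.9%, SD, n = 4). Of the 58, 19 (32.8%, against 21.8%) were called in all 4 WT and no K49A library, with Lhx2 and Six6 at the head. The list holds genes of other homeobox families, such as Lhx, Nkx, Dlx and Irx, and Pax genes. Whether each Pax gene holds a homeobox was not checked. It does not hold all homeobox genes outside the clusters. In each WT library the share of the 39 Hox genes was lower, with 35.9, 53.8, 56.4 and 53.8% for the Hox genes and 50.0, 72.4, 72.4 and 70.7% for this list. The difference between the 39 Hox genes and this list was not tested.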

How the data were processed

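MNase-seq libraries of mouse sperm (2 K49A, 4 WT) were deposited as 1 list of broad peaks per library. Per the submitters' processing notes, FastQC, BWA, Picard, SAMtools and MACS2 were used with the genome build mm10. Tool versions, settings, any input control and duplicate removal were not given in the sources used here. The authors give, peak by peak, a fold enrichment as a ratio, a −log10 p, a −log10 q and a whole-number score, and the deposited lists end at a q of 0.1. A fold is relative to its own library, and the length of a list moves with depth and background, so neither is a level of nucleosomes. Sample titles gave the groups and replicate numbers (mutants are titled MT), and the series design gave the name K49A.

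Peaks were placed against the gene ends of a RefSeq table (GRCm38.p6, which is the assembly of mm10), with windows of 1 kb and an overlap of at least 1 bp. That table gives no strand. RefSeq promoter windows gave a strand for 22 of the 39 Hox genes (9 in HoxA, 3 in HoxB, 1 in HoxC and 9 in HoxD), all alike within a cluster, and that strand was applied to the whole cluster. Clusters run from the first to the last Hox gene end. Regions were made by merging overlapping or touching peaks of the 6 lists. Groups were compared by a two-sided exact permutation test over libraries (15 splits), for the number of peaks in the clusters and the covered length of each cluster. Values in every library were given for genes called in all 4 WT libraries or in any K49A library, the others by counts and ranges, and of other gene lists those called in K49A and the 2 with the highest mean percentile of the best peak over the libraries that had one. Not every member is reported by name here. The members and lists were chosen with earlier results of these data known. Python 3.11.15 with numpy 2.4.6, pandas 2.3.3, scipy 1.17.1 and matplotlib 3.10.9 was used, and the overlap and permutation code was tested on simulated peaks. Alternatives changed the peak threshold, list length, window, overlap and libraries. The precision is that of 2 and 4 libraries, and depth per library is unknown.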

Additional observations from a re-analysis of the deposited data

Results flagged for a closer look

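In 4 of 17 sets of WT values that were checked, WT 1 lay below the other 3 libraries by a gap above the critical value of Dixon's test for 4 values, which chance alone passes in about 1 of 20 sets. They were the number of Hox genes with a peak at an end (14 in WT 1, against 21, 22 and 21), the covered length of HoxB (4163 bp, against 9554, 9408 and 8861), that of HoxD (1564 bp, against 7586, 7817 and 7084) and that of the 4 clusters together (9829 bp, against 29329, 30548 and 27872). These measures share peaks and are not independent of each other. WT 1 also had the shortest WT list (11313 peaks), and its part in these values was not tested.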

How the results depend on the processing

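Under 95 alternatives to the 7 main results, stricter thresholds and equal list lengths made the differences much smaller. The direction turned in 0 of them, but this carries little weight. Both K49A libraries had 0 bp in HoxA, HoxB and HoxD, so a turn was not possible there. The number of genes called in all WT and no K49A library is a count with no direction. The difference in Hox genes with a peak (K49A minus WT, -19.0) was -11.0 with a −log10 p of at least 5, -12.0 with a −log10 q of 2 or more, -12.25 at the higher of the lowest −log10 p of the K49A lists (an alternative chosen after seeing the data), -0.75 with 700 peaks per list, -24.25 with windows of 2 kb and -15.0 with windows of 0.5 kb. The 9 genes called in all 4 WT and no K49A library became 3, 4, 4 and 0 in the first 4 of these settings. The difference in cluster peaks (-42.0) was -18.5, -21.5, -22.0 and -0.75 in those settings. Covered length differed in HoxA (-4263.8 bp) by -1726.5, -2548.0, -2548.0 and -149.0 bp, in HoxB (-7996.5) by -4891.5, -4859.0, -5194.2 and 0, in HoxC (-6012.0) by -2485.5, -2952.8, -2772.2 and -327.2, and in HoxD (-6012.8) by -3440.0, -4029.2, -4100.8 and 0. Fewer and stronger peaks enter by construction in the settings with stricter thresholds or equal list lengths, while narrower windows use the same peaks. Leaving out each library in turn gave -20.8 to -18.2 Hox genes with a peak, 9 to 13 genes in all WT and no K49A libraries, -48.5 to -39.2 peaks in the clusters, and covered lengths of -4979.0 to -3721.7 bp for HoxA, -9274.3 to -7477.3 for HoxB, -7391.2 to -5199.2 for HoxC and -7495.7 to -5411.3 for HoxD, where the smallest p the test can give is 0.2 without a WT library and 0.4 without a K49A library. Only 2 numbers are shared by the groups, too few to show that same-numbered libraries are pairs. With the replicate number as a block the differences were -17.0 genes, -34.0 peaks, and -2873.5, -6858.5, -5162.5 and -4575.0 bp for HoxA, HoxB, HoxC and HoxD. Pairs alike in file name gave -17.0 genes, -36.5 peaks, and -4004.0, -6512.0, -3901.0 and -4324.0 bp for the same clusters. Depth per library is unknown, the lists end at different p-values, and a gene without a peak is a gene below its list's limit, not one shown to lack nucleosomes.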
